A study of Bos taurus with 179 samples.

Results

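The inner kinetochore genes described here are 10 members of the constitutive centromere-associated network, CENPH, CENPI, CENPM, CENPL, CENPN, CENPO, CENPP, CENPT, CENPW and CENPX. They were chosen by name, each symbol being paired with a gene ID, and they are 10 of 3608 IDs with a symbol and of 21218 gene IDs counted. The other genes of the network, CENPK, CENPQ, CENPU and ITGB3BP, carried no symbol in the tables used and were not analysed here, while CENPC and CENPS are described with related genes at the end. All 10 members come from the study's list of genes expressed in every size group, so their presence in most oocytes follows from that list and is not a result.

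Single oocytes of cattle (Bos taurus), isolated from ovaries collected at an abattoir, were measured and their polyadenylated RNA was amplified and sequenced. Fully grown oocytes were aspirated from surface follicles, and growing ones were then freed by slicing the ovarian cortex, in a medium with cilostamide. The labels do not say how each oocyte was recovered, so size and the way of recovery cannot be told apart. The oocytes that passed the quality control of the study were used, with diameters between 48.0 and 135.0 μm and no treatment groups. They fall into 8 size groups, with 21 oocytes < 60 μm, 25 of 60-69 μm, 23 of 70-79 μm, 24 of 80-89 μm, 21 of 90-99 μm, 18 of 100-109 μm, 19 of 110-119 μm and 14 > 120 μm. Libraries were made in 2 replicates, with 97 oocytes read at 150 bp in replicate 1 and 68 oocytes read at 75 bp in replicate 2, so read length and library batch cannot be told apart. The animals are not named, and p-values therefore measure the spread between the sums of these oocytes.

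The kinetochore is the protein structure that joins each centromere to the spindle. Its inner layer is the constitutive centromere-associated network, which sits on nucleosomes holding the centromeric histone CENPA and carries the outer microtubule-binding layer. The network is built of subcomplexes named after their subunits, CENPC, HIKM, LN, OPQUR and TWSX, and a growing oocyte stores transcripts and proteins that serve the meiotic divisions after growth has ended.

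Counts were summed over the oocytes of a size group and replicate, which gave 16 sums of 4467434 to 46545515 counts, and levels below are the counts of a gene relative to all counts of its sum after TMM scaling, in CPM (normalised CPM). Each SE comes from the spread between sums. No transcript lengths were used, so levels are not compared between genes. A single oocyte gave 52.9% of the counts of the 100-109 μm sum of replicate 1, and the < 60 μm sum of replicate 1 holds 3 oocytes. The oocyte label was checked with 5 oocyte markers, all detected in most oocytes, with a summed mean of 5060 to 9384 CPM over the size groups. Markers of granulosa and steroidogenic cells (4 genes, 0.161 to 1.42 CPM) and endothelial markers (5 genes, 0.129 to 1.31 CPM) each had a median of 0. Of 5 stromal markers, summed at 8.08 to 21.3 CPM, 3 had a median of 0, and of 5 blood cell markers, summed at 39.5 to 121 CPM, 3 had a median of 0 and CSF1R was counted in every oocyte.

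**Figure D1:**
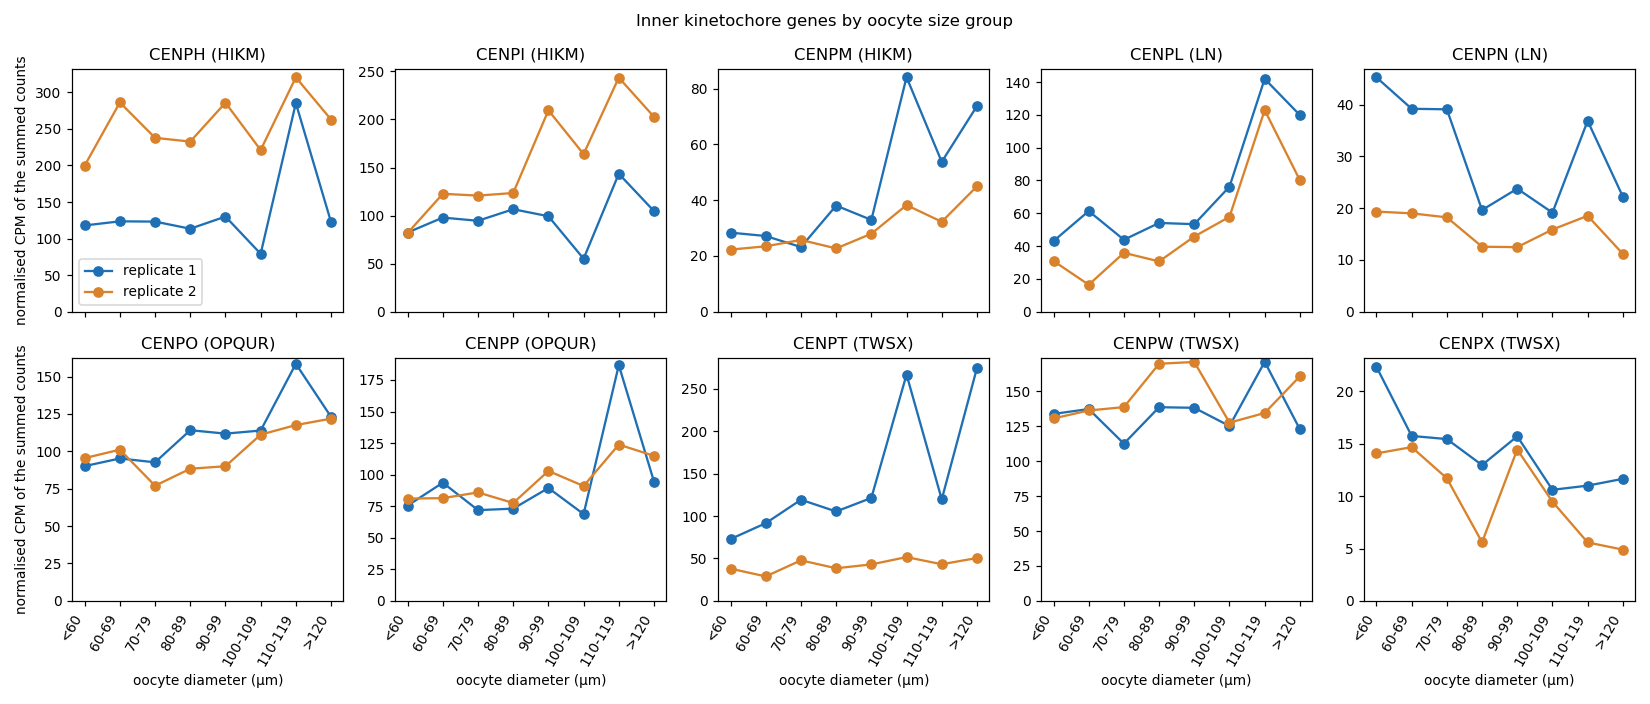
Normalised CPM of the summed counts (y axis, from 0) against the 8 size groups (x axis, diameter in μm) for each of the 10 genes, with its subcomplex in brackets. Each point is 1 sum of the oocytes of a size group in replicate 1 (blue) or replicate 2 (orange), and CENPL is highest in the 110-119 μm sums of both replicates, at 142 and 123.

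Over oocyte growth, the levels of polyadenylated transcripts rose with diameter for 6 members, fell for 1 member, and did not pass the test for 3. CENPL rose most steeply, by 0.26 ± 0.04 (SE) on the log2 scale per 10 μm, followed by CENPM, CENPT, CENPI, CENPP and CENPO. CENPX fell by 0.15 ± 0.04 per 10 μm. The question was which genes change as the oocyte grows, and the slope was taken over the mean diameters of the 16 sums with edgeR's quasi-likelihood test, the replicate as a block and Benjamini-Hochberg adjustment over 14087 genes. The 7 members called are to be read against 33% of all genes called, 14.8% higher and 18.1% lower. The median slope was 0.08 over the 10 members, of which 8 were positive, and -0.02 over all genes tested, of which 45.2% were positive. With no replicate block, 2 members were called (CENPL and CENPM), beside 15.6% of all genes. The summed marker levels also went with diameter over single oocytes, with r = 0.64 for the oocyte markers and -0.26 for granulosa and steroidogenic markers. It was -0.24 for blood cell, 0.11 for stromal and 0.10 for endothelial markers. The part of these markers in the slopes was not tested.

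**Figure D2:**
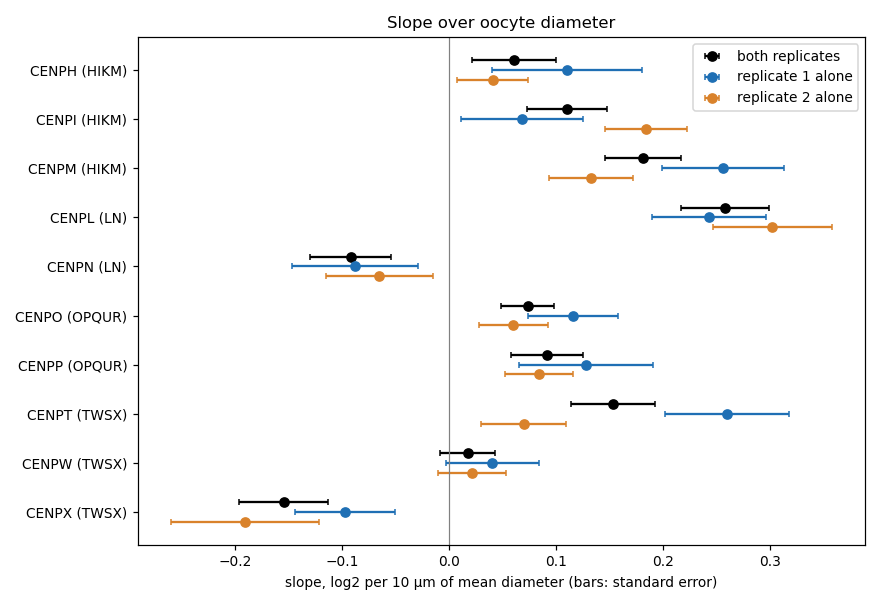
Slope of each gene over oocyte diameter (x axis, log2 per 10 μm of mean diameter), fitted to the sums of both replicates (black) and of each replicate alone (blue and orange), with bars of 1 standard error. The estimates of 8 genes lie to the right of 0 in all 3 fits, and those of CENPX and CENPN lie to the left in all 3.

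In the HIKM subcomplex, which links the nucleosome-binding subunits to the rest of the network, CENPM and CENPI rose and CENPH did not pass the test. CENPM is folded like a small GTPase but is not one. From the smallest to the largest size group, its normalised CPM was 28.4, 27.2, 23.2, 38.1, 32.9, 84.1, 53.8 and 73.8 in replicate 1. In replicate 2 it was 22.3, 23.5, 25.7, 22.7, 28.0, 38.3, 32.3 and 45.0. In each replicate the 3 largest groups lay above the 5 smaller ones. The share of all genes whose groups separate so was not counted, here or for the other members, and the slope passed for 33% of all genes. The slope was 0.18 ± 0.04 per 10 μm (adjusted p = 0.000566), and it passed within replicate 1 (0.26 ± 0.06) and within replicate 2 (0.13 ± 0.04).

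The 100-109 μm sum of replicate 1, the highest for CENPM, took 72.1% of its CENPM counts from the oocyte named above, whose level was the highest of its group. The median over the 11 oocytes of that sum was 48.0 CPM, against 37.8 CPM over the 7 oocytes of replicate 2. Without this oocyte, an alternative chosen after seeing the data, the slope of CENPM was 0.18 (adjusted p = 9.15e-05). The difference between 110-119 and 100-109 μm, -0.48 ± 0.32, then came to 0.01, while in replicate 2, which does not hold this oocyte, the 110-119 μm level was 0.843 of that at 100-109 μm.

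CENPI, another subunit of HIKM, had a normalised CPM of 82.4, 97.9, 94.6, 107, 99.3, 55.1, 143.5 and 105 from the smallest to the largest group in replicate 1. In replicate 2 it was 81.9, 123, 121, 123, 209.5, 164, 243 and 202.7. The 4 largest groups lay above the others in replicate 2, while in replicate 1 the lowest sum was that of 100-109 μm. The slope was 0.11 ± 0.04 (adjusted p = 0.027), and without the < 60 μm sum of replicate 2 it was 0.10 (adjusted p = 0.0612). Within replicate 2 it was 0.18 ± 0.04 (adjusted p = 0.00379) and within replicate 1 it was 0.07 ± 0.06 (adjusted p = 0.429). The difference of these slopes, 0.14 ± 0.07, did not pass the test (adjusted p = 0.475).

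CENPH, which pairs with CENPK, had a normalised CPM of 118, 124, 123, 113, 130.1, 79.2, 285 and 123 in replicate 1, again in order of size. In replicate 2 it was 199.9, 286.2, 238, 232.6, 285.8, 221.1, 320.4 and 262.8. The 110-119 μm sum was the highest in both replicates, and the other sums of replicate 1 lay between 79.2 and 130.1. The slope was 0.06 ± 0.04 (adjusted p = 0.247), and 0.02 (adjusted p = 0.608) without the 110-119 μm sum of replicate 1. With each oocyte thinned to 250000 counts, so that all oocytes weigh the same, it was 0.11 and passed (adjusted p = 0.0108). Over single oocytes the level of CENPH also went with the total count (r = 0.29 with its log10), and the part of depth in its slope was not tested.

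The LN subcomplex pairs CENPL with CENPN, the subunit that binds the CENPA nucleosome, and their slopes had opposite signs, of which that of CENPL passed the test. CENPL had a normalised CPM of 43.1, 61.4, 43.9, 54.1, 53.4, 76.2, 142 and 119.9 in replicate 1. In replicate 2 it was 30.9, 16.4, 35.9, 30.7, 45.9, 57.8, 123 and 80.1. In each replicate the 3 largest groups lay above all others, with the highest level at 110-119 μm, and the share of all genes that do so was not counted. The slope of 0.26 ± 0.04 (adjusted p = 6.84e-05) amounts to 19.6% per 10 μm, and it passed within replicate 1 (0.24 ± 0.05) and within replicate 2 (0.30 ± 0.06). The geometric mean of the 2 sums was lowest at 60-69 μm, at 31.8, and highest at 110-119 μm, at 132.1, a range of 4.16-fold.

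Single oocytes varied widely around these sums for CENPL. In order of size, the median CPM per oocyte of replicate 1 was 47.2, 49.1, 34.5, 44.4, 43.9, 61.5, 137 and 139.9, over 3, 17, 16, 16, 12, 11, 12 and 10 oocytes. The medians of replicate 2 were 30.3, 14.9, 22.5, 41.4, 37.9, 68.1, 141 and 69.0, over 18, 8, 7, 8, 9, 7, 7 and 4 oocytes. In each replicate the medians of the 3 largest groups lay above the others. Over both replicates, the oocytes > 120 μm ranged from 26.9 to 252 CPM and those < 60 μm from 0 to 141, so the largest and smallest groups overlapped. At 110-119 μm the range was 38.1 to 401 CPM.

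CENPN had a normalised CPM of 19.1 to 45.3 in replicate 1 and of 11.2 to 19.3 in replicate 2. In both replicates the highest sum was that of < 60 μm, and the 110-119 μm sum stood above its neighbours, at 36.9 and 18.5. The slope was -0.09 ± 0.04 per 10 μm and did not pass the test (adjusted p = 0.065), while without the 110-119 μm sum of replicate 1 it was -0.11 (adjusted p = 0.0282). Over single oocytes, the level of CENPN also went with the total count (r = 0.44 with its log10, over the 97 and 68 oocytes of the replicates), while diameter and total count were related by r = -0.22. The part of depth in the slope was not tested.

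**Figure D3:**
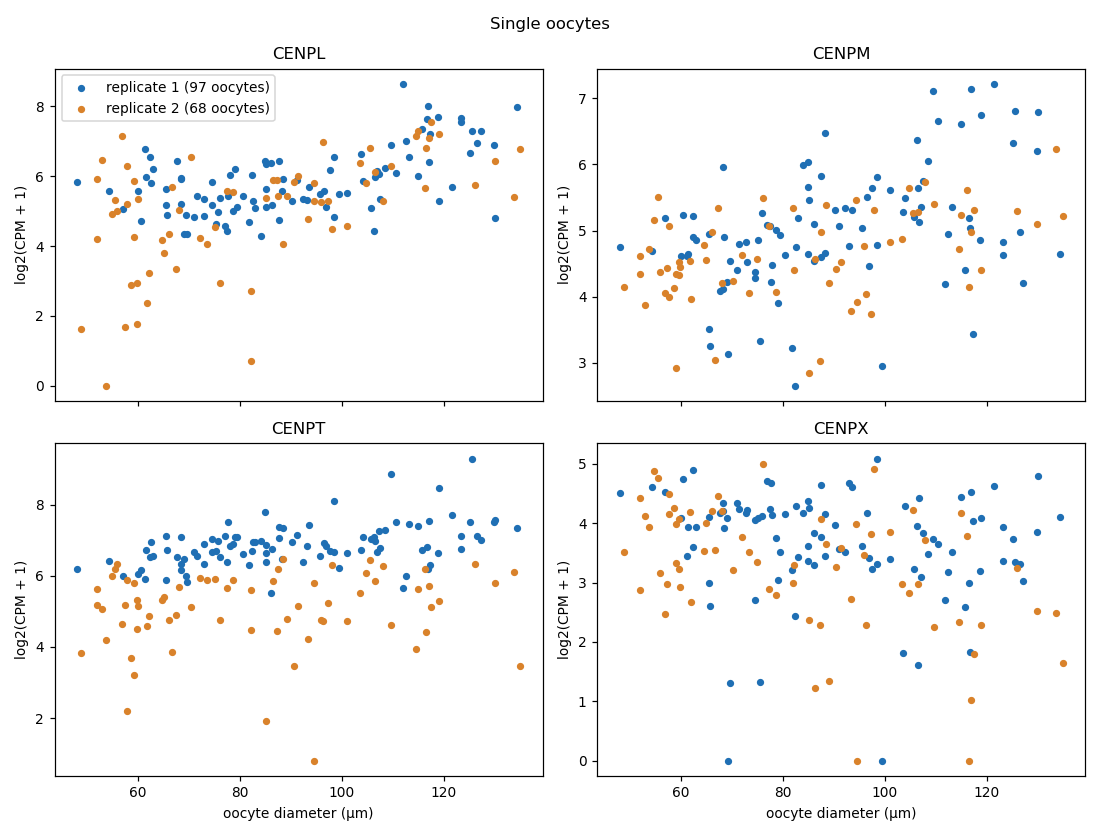
Log2(CPM + 1) of CENPL, CENPM, CENPT and CENPX in single oocytes (y axis) against oocyte diameter (x axis, μm), with replicate 1 in blue (97 oocytes) and replicate 2 in orange (68 oocytes). CENPL climbs beyond 100 μm in both replicates, and CENPT of replicate 1 lies above that of replicate 2 at most diameters.

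CENPO and CENPP, the paired subunits at the base of OPQUR, rose modestly. The normalised CPM of CENPO was lowest at 70-79 μm in replicate 2, with 77.0, and highest at 110-119 μm in replicate 1, with 158. Its slope was 0.07 ± 0.02 (adjusted p = 0.026), or 5.23% per 10 μm. CENPP ranged from 68.8 to 187, and the 110-119 μm sum was the highest in both replicates, at 187 and 124. Its slope of 0.09 ± 0.03 (adjusted p = 0.0413) was just past the threshold. The slope of CENPP did not pass without the < 60 μm sum (0.10, adjusted p = 0.0529), the 80-89 μm sum (0.09, adjusted p = 0.0529) or the 110-119 μm sum (0.06, adjusted p = 0.0586) of replicate 1, and with all 179 oocytes it was 0.06 (adjusted p = 0.253). Neither gene passed within a single replicate, with adjusted p-values of 0.0777 and 0.207 for CENPO and of 0.176 and 0.0743 for CENPP. In the RefSeq annotation, CENPO overlaps ADCY3 and PTRHD1, and CENPP overlaps OGN, OMD, ASPN, ECM2 and IPPK. CENPH and CENPL each overlap a pseudogene and CENPI a tRNA gene. Whether the counting used strand is not stated, so reads of these neighbours cannot be told apart from those of the 5 members.

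The TWSX subcomplex holds histone-fold proteins that bind DNA, and of its members CENPT rose, CENPX fell and CENPW did not pass the test. CENPT carries the arm that recruits the outer NDC80 complex. Its normalised CPM was 72.9, 91.6, 119, 105, 121, 267, 119.7 and 274 in replicate 1. In replicate 2 it was 38.0, 28.8, 47.8, 38.5, 43, 51.6, 43.2 and 50.6. Every sum of replicate 1 lay above every sum of replicate 2, and in both replicates the 100-109 and > 120 μm sums were the highest. The slope was 0.15 ± 0.04 (adjusted p = 0.00469). It was 0.26 ± 0.06 within replicate 1 (adjusted p = 0.0117) and 0.07 ± 0.04 within replicate 2 (adjusted p = 0.238). The difference of the slopes was -0.17 ± 0.07 and did not pass the test (adjusted p = 0.37).

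For CENPT, single oocytes weighed heavily in the highest sums. An oocyte gave 77.2% of its counts in the 100-109 μm sum of replicate 1, and an oocyte gave 62.5% in the > 120 μm sum of replicate 1. The median per oocyte of replicate 1 was 131.1 CPM at 100-109 μm and 171 CPM > 120 μm, below the sums of 267 and 274. Without the oocyte that dominated the 100-109 μm sum, the slope of CENPT was 0.15 (adjusted p = 0.00196).

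CENPX works with CENPS in this subcomplex and also in DNA repair with FANCM. Its normalised CPM was 22.3, 15.7, 15.4, 13, 15.7, 10.6, 11 and 11.7 in replicate 1. In replicate 2 it was 14.1, 14.7, 11.7, 5.60, 14.5, 9.47, 5.58 and 4.89. In each replicate the 3 largest groups lay below the 3 smallest, and the share of all genes that do so was not counted. The slope of -0.15 ± 0.04 (adjusted p = 0.00706) amounts to -10.2% per 10 μm, and it did not pass within replicate 1 (-0.10, adjusted p = 0.169) or within replicate 2 (-0.19, adjusted p = 0.067). With 250000 counts per oocyte it was -0.09 (adjusted p = 0.115). CENPX had the fewest counts of the 10 members, 4770 in all. Over the same oocytes its level also went with the total count (r = 0.28 with its log10), and the part of depth in its slope was not tested.

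CENPW, the histone-fold partner of CENPT, stayed within a narrow range. Its normalised CPM ran from 113 to 171 over the 16 sums, and the geometric means of the size groups spanned 1.23-fold. The slope was 0.02 ± 0.03 (adjusted p = 0.642), which misses the threshold and does not show that the level was constant.

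Between the smallest and the largest oocytes, CENPL, CENPM and CENPT were higher > 120 μm than < 60 μm. The differences were log2 1.42 ± 0.35 for CENPL (adjusted p = 0.0083), 1.2 ± 0.32 for CENPM (adjusted p = 0.0145) and 1.19 ± 0.33 for CENPT (adjusted p = 0.0179), by the same test. For CENPL this was 2.78-fold in replicate 1 and 2.59-fold in replicate 2, and for CENPM 2.60-fold and 2.02-fold. For CENPT it was 3.76-fold in replicate 1 and 1.33-fold in replicate 2. The 3 members called, all higher, stand beside 19.2% of all genes called and 9.36% called higher. CENPX (-1.15 ± 0.40, adjusted p = 0.0524) and CENPN (-0.91 ± 0.32, adjusted p = 0.0563) were lower in both replicates without passing. When each sum was left out, CENPX ran from -1.59 to -0.747 and CENPN from -0.975 to -0.678. The median of the 10 members was 0.41, against -0.12 over all genes tested.

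These calls rest on few sums. Without the < 60 μm sum of replicate 1, none of the 10 members was called by edgeR, beside 7.40% of all genes, and the log2 differences were 1.38 for CENPL (adjusted p = 0.057), 1.15 for CENPM (adjusted p = 0.104) and 0.85 for CENPT (adjusted p = 0.211). Without the > 120 μm sum of replicate 1, CENPM (1.08, adjusted p = 0.118) and CENPT (0.69, adjusted p = 0.309) were lost, beside 7.63% of all genes called. CENPM was also not called when only the groups compared entered the fit (1.24, adjusted p = 0.0523), beside 12.3% of all genes called. With no replicate block 0 members were called, beside 0.575% of all genes, and 2 had an unadjusted p below 0.05, beside 14.96% of all genes. DESeq2 with the block called 5 members and 24.3% of all genes.

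Between 100-109 and 110-119 μm, CENPH was the member that passed the test, higher by log2 1.23 ± 0.30 (adjusted p = 0.0395). It was 3.60-fold higher in replicate 1 and 1.45-fold higher in replicate 2. This 1 member, called as higher, stands beside 3.88% of all genes called and 1.89% called higher. The number of all genes called in this step was 547, and it was 0 without the 100-109 or the 110-119 μm sum of replicate 1 and 2 with all 179 oocytes. CENPP (0.97 ± 0.28, adjusted p = 0.0515), CENPL (1.00 ± 0.34, adjusted p = 0.0842) and CENPI (0.90 ± 0.33, adjusted p = 0.1) were also higher in both replicates without passing. When each sum was left out, CENPP ran from 0.53 to 1.38 and CENPI from 0.48 to 1.55. CENPI then passed without the 100-109 μm sum of replicate 2 (adjusted p = 0.0241), and CENPP passed without that sum (adjusted p = 0.0391), without the 110-119 μm sum of replicate 2 (adjusted p = 0.00948) and without the < 60 μm sum of replicate 1 (adjusted p = 0.0348) or 2 (adjusted p = 0.0349). CENPT had -0.76 ± 0.33 (adjusted p = 0.152), at 0.448-fold in replicate 1 and 0.837-fold in replicate 2. It was -0.26 without the 100-109 μm sum of replicate 1 and -0.13 without the dominant oocyte of that sum, which gave 77.2% of its CENPT counts.

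The call of CENPH ended without the 110-119 μm sum of replicate 1 (0.69, adjusted p = 0.466) and without the 100-109 μm sum of replicate 1 (0.99, adjusted p = 0.433). It also ended, at values between 1.23 and 1.26 and adjusted p-values between 0.0503 and 0.0576, without the 60-69 or the 80-89 μm sum of either replicate and without the 90-99 μm sum of replicate 2. With no replicate block the value was 1.01 (adjusted p = 0.835).

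In the other steps between neighbouring size groups, 0 members passed edgeR's test. From < 60 to 60-69 μm, where 0.0142% of all genes were called, no member reached an unadjusted p below 0.05, beside 3.21% of all genes. From < 70 to 70-79 μm, with 0.135% called, the count at an unadjusted p below 0.05 was also 0, beside 7.55% of all genes. From 70-79 to 80-99 μm, with 0% called and 5.54% at that unadjusted p, it was 1, CENPN (-0.70 ± 0.27). From 80-89 to 90-99 μm, with 0% called and 3.33% at that p, it was 0.

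From 80-99 to 100-109 μm, with 0.497% called and 16.1% at an unadjusted p below 0.05, the count at that p was 2, CENPM (0.96 ± 0.27) and CENPT (0.84 ± 0.27). CENPM was 2.38-fold higher in replicate 1 and 1.52-fold in replicate 2, and CENPT 2.36-fold and 1.27-fold. The dominant oocyte gave 72.1% of the CENPM and 77.2% of the CENPT counts of the 100-109 μm sum of replicate 1, and without it 0 members were called or had an unadjusted p below 0.05, beside 8.69% of all genes at that p. From 110-119 to > 120 μm, 0.0071% of all genes were called and 11.1% had an unadjusted p below 0.05. The count of members at that p was 4, with CENPT higher (0.78 ± 0.33) and CENPH (-0.81 ± 0.29), CENPN (-0.72 ± 0.33) and CENPP (-0.58 ± 0.28) lower. In replicates 1 and 2, CENPT was at 2.29-fold and 1.17-fold, CENPH at 0.430 and 0.820, CENPN at 0.603 in both, and CENPP at 0.506 and 0.928. A single oocyte gave most CENPT counts of the > 120 μm sum of replicate 1, as described above. DESeq2 called 1 member, CENPM, from 80-99 to 100-109 μm, beside 3.59% of all genes, and 0 members in the other 5 of these steps.

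When any difference among the 8 size groups was tested, CENPL (adjusted p = 0.00153), CENPM (adjusted p = 0.016) and CENPT (adjusted p = 0.0373) passed, beside 14.9% of all genes. An unadjusted p below 0.05 was found for 8 members, all but CENPO and CENPW, and for 30.97% of all genes.

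Within replicate 1 the slope passed for 3 members, CENPL, CENPM and CENPT, beside 17.5% of all genes. Within replicate 2 it passed for 3 members, CENPI, CENPL and CENPM, beside 18.2% of all genes. CENPL and CENPM passed in both. The difference of the slopes between the replicates passed for 0 of 14087 genes with edgeR, with 1527 at an unadjusted p below 0.05, among them CENPT.

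The level itself also differed between the replicates. Averaged over the size groups as a geometric mean ratio, CENPT was 3.13-fold higher in replicate 1 and lay above replicate 2 in 8 of 8 groups. CENPN (1.87-fold), CENPL (1.53-fold) and CENPX (1.53-fold) were also higher in replicate 1 in 8 of 8 groups, and CENPM (1.41-fold) in 7. CENPH stood at 0.507 of replicate 2 and was lower in replicate 1 in 8 of 8 groups, and CENPI at 0.635 and lower in 7. CENPO (1.12), CENPP (0.954) and CENPW (0.923) had the ratios nearest to 1.

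Over the 97 oocytes of replicate 1 and the 68 of replicate 2, with the mean of each replicate removed, Pearson's r with diameter is given as a description. It was 0.53 for CENPL, 0.41 for CENPI, 0.41 for CENPM, 0.40 for CENPO, 0.35 for CENPP, 0.34 for CENPH, 0.26 for CENPT and 0.18 for CENPW. It was -0.21 for CENPN and -0.28 for CENPX. The oocytes of a replicate share a library batch, and within the replicates (replicate 1, then 2) r was 0.55 and 0.54 for CENPL, 0.42 and 0.41 for CENPM, 0.30 and 0.54 for CENPI, 0.57 and 0.15 for CENPO, and 0.40 and 0.28 for CENPP. It was 0.44 and 0.18 for CENPH, 0.47 and 0.12 for CENPT, 0.30 and -0.02 for CENPW, -0.20 and -0.24 for CENPN, and -0.12 and -0.46 for CENPX. With 250000 counts per oocyte, r over both replicates was 0.27 for CENPM, 0.21 for CENPP, 0.09 for CENPW and -0.16 for CENPX. With all 179 oocytes it was -0.01 for CENPN and -0.17 for CENPX. Over all 14087 genes the median r was -0.04, and 90% of genes lay between -0.46 and 0.47, which places CENPL above that range and the other 9 members within it.

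All 10 members were counted in 160 oocytes, and 9 of them in the other 5. CENPX had no count in 4 oocytes, and CENPL in 1. With 250000 counts per oocyte, all 10 were counted in 129 oocytes, and the shares lowest among the members were 84.8% for CENPX and 94.5% for CENPN. A share of 100% of these oocytes has an exact binomial 95% interval from 97.8 to 100%. This interval takes oocytes as independent draws, though they share library batches and their animals are not named. The counts carry no molecular identifiers.

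Pairs of members differed widely in how they varied from oocyte to oocyte, and 31 of the 45 pairs had a positive r. Over the single oocytes, with replicate means removed, the 45 pairs had r from -0.35 (CENPI and CENPX) to 0.60 (CENPO and CENPW), with a median of 0.14. The other high values were 0.58 for CENPH with CENPP, 0.55 for CENPM with CENPT and 0.55 for CENPI with CENPL, all pairs across subcomplexes. Within replicates 1 and 2, r was 0.72 and 0.30 for CENPO with CENPW, 0.71 and 0.25 for CENPH with CENPP, 0.63 and 0.58 for CENPM with CENPT, and 0.69 and 0.47 for CENPI with CENPL, so that CENPM with CENPT was the highest pair in replicate 2. The 8 pairs within a subcomplex had a median r of 0.23 and the 37 others of 0.11. After diameter and total count were removed, these medians were 0.17 and 0.01. CENPL and CENPN, whose slopes had opposite signs, had r = 0.30, and r = 0.48 after that removal, while CENPI and CENPM, both of HIKM, had -0.18 and then -0.47. CENPT and CENPW, which form a dimer as proteins, had r = 0.06, with 0.24 in replicate 1 and -0.14 in replicate 2. These values are descriptions over oocytes that share library batches and differ in depth. No pairs of other genes were set beside them, so they do not show whether r was low or high for this series.

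**Figure D4:**
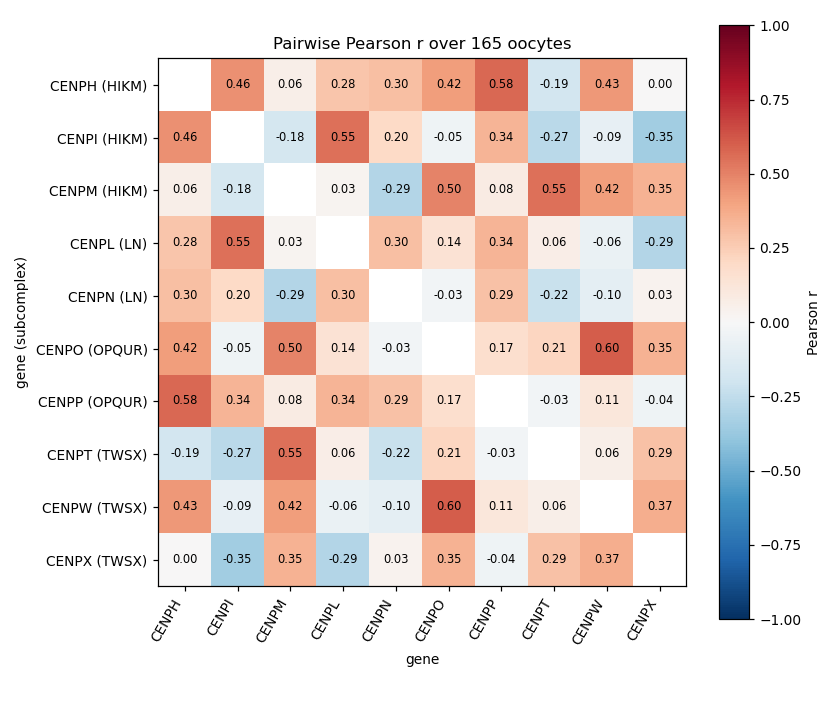
Pearson r of each pair of genes over the oocytes of both replicates (97 and 68), replicate means removed, with the gene on both axes, the subcomplex in brackets and the colour running from -1 (blue) to 1 (red). The highest value, 0.60, belongs to CENPO and CENPW, and the lowest, -0.35, to CENPI and CENPX.

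The genes whose levels were most like each member were looked for among 2935 genes with a symbol, by Pearson's r over the same oocytes with replicate means removed. The symbols come from gene lists held only in part, and 79.3% of those in the fit begin with A, B or C, so genes with later initials were mostly not searched. Within these genes, the highest r was with CRIPT for CENPH (0.865), ATP5IF1 for CENPW (0.845), COASY for CENPT (0.775), COPS7A for CENPM (0.755) and BET1 for CENPP (0.722). The highest was with CNOT7 for CENPI (0.679), CKS1B for CENPO (0.642), CHMP2A for CENPX (0.631), BORA for CENPL (0.596) and ATP6V1D for CENPN (0.585). BORA, an activator of Aurora A, was also the next after CNOT7 for CENPI (0.676). No member had its highest r with another member. Since nearly all genes searched were not members, this does not tell how the members vary together. In replicate 2 alone, r was 0.299 for CENPN with ATP6V1D and 0.394 for CENPO with CKS1B.

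A chosen list of 14 other centromere and kinetochore genes, not all that carry a symbol in these partial lists (CENPV, for one, is not in it), holds the centromeric proteins CENPA, CENPB and CENPC, the histone-fold protein CENPS, the corona proteins CENPE and CENPF, the chromosomal passenger genes AURKB, AURKC, BIRC5 and CDCA8, and the checkpoint genes BUB1, BUB1B, BUB3 and CDC20. The slope passed for 8 of 14, with 5 higher and 3 lower, beside the 33% of all genes called, 14.8% higher and 18.1% lower. AURKC, the Aurora kinase of germ cells, rose by 0.21 ± 0.03 per 10 μm (adjusted p = 2.52e-05). CENPS, the partner of CENPX, had a slope of -0.17 ± 0.05 (adjusted p = 0.0211) beside -0.15 ± 0.04 for CENPX. CENPC, the scaffold on which the 10 members assemble, had 0.00 ± 0.04 (adjusted p = 0.955). With no replicate block, 1 of the 14 was called (AURKC), beside 15.6% of all genes.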

How the data were processed

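Polyadenylated RNA of single bovine oocytes was amplified with a Smart-seq2 protocol and sequenced. Reads were trimmed by the authors with Trim Galore (version 0.6.6), mapped to ARS-UCD1.2 with HISAT2 and assigned to genes in SeqMonk. The table they deposited holds unnormalised counts, with 1 column for each oocyte. The use of strand, multiple alignments and overlapping genes is not stated. The lines of a gene ID were summed (6 lines for CENPP, the largest with 86.1% of its counts). Symbols came from the study's supplementary gene lists. Coordinates are not given, since the RefSeq table used is of another assembly (ARS-UCD2.0) and served for names and neighbours.

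Counts of 165 of 179 oocytes were summed by size group and replicate. After filterByExpr (minimum count 10, minimum total 15), 14087 genes were kept, with TMM scaling and edgeR's quasi-likelihood test (edgeR 4.0.16, R 4.3.3), with size group or mean diameter and the replicate block as terms. Calls had a Benjamini-Hochberg adjusted p below 0.05. The SE is the log2 value divided by the square root of F. The sums of a replicate come from 1 library batch, and their deviations from the group means correlated in all 28 pairs (r 0.334 to 0.648), so the block was kept. Levels per oocyte are log2(CPM + 1) with TMM scaling over oocytes. The fits were tested on simulated data.

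The members, lists, named genes (all 10 members, the list of 14 and the most similar gene of each member) and tests were chosen with earlier results of these data known. Alternatives were no replicate block, RLE scaling, DESeq2 1.42.0, no filter, single oocytes, ComBat-seq counts (sva 3.50.0), 250000 counts per oocyte, all 179 oocytes, only the groups compared, and each sum left out. Chosen after seeing the data were the largest line of each ID, each replicate alone, the slope difference between replicates and the sum without its dominant oocyte. Python 3.11.15, pandas 2.3.3 and matplotlib 3.10.9 were used. The total per oocyte was 277126 to 8038061 counts, median 1763520.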

Additional observations from a re-analysis of the deposited data

Results flagged for a closer look

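In size groups of a replicate with 4 to 10 oocytes, the gap between the most extreme oocyte and its neighbour was compared with the range of the group, for log2(CPM + 1) of the 10 members. Of 80 tests, 6 passed Dixon's limit, and chance passes about 1 in 20. CENPT at 80-89 μm in replicate 2 had a low oocyte (ratio 0.557, 1.91 against 4.45 for the next of 8 oocytes). CENPW in the same group had a high oocyte (ratio 0.568, 8.13 against 7.35). CENPO at 90-99 μm in replicate 2 had a low oocyte (ratio 0.580, 5.01 against 6.21 of 9 oocytes). CENPL at 110-119 μm in replicate 2 had a low oocyte (ratio 0.60, 5.66 against 6.80 of 7 oocytes). CENPT > 120 μm in replicate 1 had a high oocyte (ratio 0.630, 9.29 against 7.69 of 10 oocytes), the one with 62.5% of the CENPT counts of that sum. CENPM > 120 μm in replicate 2 had a high oocyte (ratio 0.832, 6.23 against 5.29 of 4 oocytes).

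Of the 14 deposited oocytes that the comparisons did not use, 11 had over 3 counts of at least 1 member, 4 had a count of all 10 members, and 2 had no count of any.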

How the results depend on the processing

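For the slope over diameter, 7 members were called, and between 6 and 7 when each of the 16 sums was left out. With no replicate block the number was 2 (15.6% of all genes), and within the oocytes of replicate 1 and of replicate 2 only it was 3 each. The other alternatives gave 6 to 10, the highest with single oocytes as units (57.7% of all genes called) and ComBat-seq counts (56.8%), where oocytes count as independent. In the following, brackets give all genes called in the same fit, as a percent or out of the genes tested. For > 120 against < 60 μm (3 called), leaving out a sum gave 0 to 4, no replicate block 0, only the groups compared 2 (CENPL and CENPT, 12.3%), DESeq2 5 (24.3%), single oocytes 6 (40.5%) and ComBat-seq counts 7 (41.4%). For 110-119 against 100-109 μm (1 called), the number moved when a sum was left out, and the value of CENPH then ran from 0.69 to 1.70. No replicate block (0 of 14087), all 179 oocytes (2 of 14121) and only the groups compared (22 of 12035) gave 0. RLE scaling (668 of 14087), no filter (1317 of 17969) and 250000 counts per oocyte (759 of 10802) gave 2. The largest line of each ID (616 of 14083) and leaving out the dominant oocyte (476 of 14034) also gave 2. DESeq2 gave 4 (13.96%), and single oocytes (36.95%) and ComBat-seq counts (38.1%) gave 5. For any difference among the groups (3 called), the number also moved when a sum was left out. No replicate block gave 0 (0%), no filter 6 (17.7%), DESeq2 7 (29.1%), ComBat-seq counts 8 (64.2%) and single oocytes 9 (65.4%). For 100-109 against 80-99 μm (0 called), DESeq2 (3.59%), single oocytes (6.18%) and ComBat-seq counts (4.91%) gave 1 and only the groups compared gave 2 (7.53%). For > 120 against 110-119 μm (0 called), ComBat-seq counts gave 1 (6.46%) and leaving out a sum gave 0 to 1, the 1 without the 110-119 μm sum of replicate 2 (1.99%). The other 4 comparisons gave 0 in every alternative run. The cause of these changes was not tested.

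A sign changed in values that had not passed. With all 179 oocytes, CENPW had a slope of -0.00199 and a log2 difference of -0.0838 between > 120 and < 60 μm. Between 110-119 and 100-109 μm, CENPM came to 0.000251 with 250000 counts per oocyte and to 0.0104 without the dominant oocyte, and CENPW, between -0.0323 and 0.59 when a sum was left out, to -0.0323 without the 110-119 μm sum of replicate 1. The slope of CENPX was not called with 250000 counts per oocyte and that of CENPH was, so the 7 called then were not the 7 above.

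Each size group has 2 sums, of 3 to 18 oocytes from animals that are not named, and the smallest sum holds 4467434 counts. Depth per oocyte and diameter were related by r = -0.22, with group medians lowest at 100-109 μm (923622 counts) and 1986086 at 110-119 μm. The levels are relative to all counted genes of a sum, so they do not give transcripts per oocyte. RNA was captured by its poly(A) tail, and the paper cautions that choosing long tails may leave the picture incomplete. Tail length was not measured here. Overlapping genes touch CENPO and CENPP most. A member that was not called here cannot be taken as unchanged.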
